A study of Salmo salar with 12 samples.

Results

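CpG methylation of the pituitary gland of female Atlantic salmon was compared between T4, the last sampling after a long-light photoperiod, and T1, the sampling immediately before it. The comparison used 4 whole-genome bisulfite libraries, 2 at T1 and 2 at T4, out of 12 in a series that also holds ovary and liver. It covered the 5597767 CpG cytosines listed in all 4 pituitary files, which were 31.6% of the 17703546 listed in any pituitary file, and 21901728 were listed in any of the 12 files. All groups were female broodstock of a single management group kept in tanks, the regime serves to bring on sexual maturation, and no untreated group was sampled at the time of T4. Each fish was killed at sampling, so no animal was measured at both time points, and with 2 fish at each of them the time point and the fish cannot be told apart.

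The pituitary secretes the gonadotropins, follicle-stimulating hormone and luteinizing hormone, which drive growth of the ovary, and in fish their release follows day length. CpG methylation is the addition of a methyl group to a cytosine that precedes a guanine, placed and copied by DNA methyltransferases and removed by dilution at replication or through oxidation by TET enzymes. In vertebrates most CpGs carry it, and short unmethylated stretches mark many promoters and enhancers. Bisulfite turns unmethylated cytosines into uracil, so the methylation level of a cytosine was its methylated reads as a percentage of all its reads, and differences between levels are given in percentage points (points). A tissue level is a mean over all cell types of the gland, and a change in their mixture and a change within a cell type cannot be told apart. No expression was measured in these files, so the labelled tissue could not be checked against hormone genes.

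The files listed 9525843 and 12014565 cytosines at T1 and 11005842 and 11965718 at T4, each with at least 10 reads. Median coverage of the shared cytosines was 17 to 20 reads, and 92.2% of them lay on the 29 chromosome sequences of the ICSASG_v2 assembly. Pituitary T1 replicate 1 was the shallowest library and listed no cytosine with more than 150 reads, against 14139 to 21326 such cytosines in the other 3. The mean level, the densest stratum and the count of called tiles are therefore also given without it, and the starting-level strata, shares, windows and single cytosines only with it. Across the shared cytosines the levels of library pairs correlated at r = 0.852 within T1, 0.860 within T4 and 0.840 to 0.858 between time points, which is a description over cytosines and not over animals.

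Mean methylation of the gland was slightly lower in both T4 libraries. The mean level over the shared cytosines was 80.4% in T1 replicate 1 and 80.7% in T1 replicate 2, and it was 80.2% in T4 replicate 1 and 79.9% in T4 replicate 2. The groups did not overlap, and the difference was -0.486 points (80.5% ± 0.201 at T1 and 80.1% ± 0.258 at T4, SD, n = 2). The gap between replicates was smaller, at 0.284 points at T1 and 0.364 points at T4. That gap sets a single library against another rather than means of 2, so the values are not directly comparable. The exact permutation test of the library means gave p = 0.333 (two-sided), the smallest value that 2 libraries against 2 can reach. Without T1 replicate 1 the difference was -0.628 points. The direction rested on comparing the same cytosines. When every listed cytosine of each file was used, the levels were 80.2% and 81.2% at T1 and 80.9% and 80.6% at T4, the groups overlapped, and the difference was 0.0422 points.

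The share of nearly fully methylated cytosines was smaller at T4. The share of cytosines with a level of 90% or more was 47.1% and 47.6% in the T1 libraries and 45.9% and 45.6% in the T4 libraries, a difference of -1.61 points. The share with a level from 10% to under 90% was 49.0% and 48.4% at T1 and 50.3% in each library at T4, which was 1.59 points higher. The share under 10% overlapped between the groups, at 3.92% and 4.05% at T1 and 3.84% and 4.17% at T4. For the share of 90% or more and the intermediate share the groups did not overlap (exact permutation test, two-sided, p = 0.333 each, the smallest possible). Such shares also move with the reads per cytosine, whose mean was 19.5 and 24.1 at T1 and 22.5 and 23.8 at T4, and the part of depth in them was not tested.

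Methylation was then described by starting level. To keep sampling error in the starting level out of the difference, the strata were set by a T1 library and the other T1 library was compared with T4, and the T1 libraries then changed places. Each T1 library was thus measured on a different set of cytosines, and each T4 value was a mean over both sets. The difference of the group means compares like sets, but the separation or overlap of single libraries does not. With these strata, cytosines starting at 70% and over were lower at T4 in both libraries, and the groups overlapped in every stratum under 70%. In the stratum of 70% to 90%, with 1928694 or 1939908 cytosines by the library that set it, the level was 85.1% and 85.7% at T1 and 84.9% and 84.7% at T4, which gave a difference of -0.656 points. In the stratum of 90% and over it was 90.9% and 91.1% at T1 and 90.7% in each library at T4, a difference of -0.298 points. Levels in the stratum of 90% and over lie near its lower edge because the library that set the stratum was not the library measured. Both differences were small next to the level. The T4 libraries lay below both T1 libraries, with the limit on single libraries given above.

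At lower starting levels the T4 libraries stood apart from each other. In the stratum of 10% to 30% they were at 26.5% and 23.6%, on either side of the T1 libraries at 25.6% and 24.7%. In the stratum of 30% to 50% they were at 46.0% and 43.7%, against 45.7% and 45.8% at T1. The gap between the T4 replicates was 2.93 and 2.33 points in these strata, and that between the T1 replicates was 0.902 and 0.0483 points. The T1 replicates were measured on different sets of cytosines and the T4 replicates on the same, so these gaps are not like measures of spread. The differences between time points, -0.0903 points and -0.944 points, were smaller than the gap between the T4 replicates. In the stratum of 50% to 70% the difference was -1.22 points, with T1 at 67.0% and 68.5% and T4 at 67.1% and 65.9%, and under 10% it was 0.332 points, with T1 at 7.23% and 6.69% and T4 at 7.73% and 6.85%. In both of these the groups overlapped. Leaving out a T4 library turned the sign in 3 strata. Without T4 replicate 1 and without T4 replicate 2 the difference was -0.110 and 0.774 points under 10%, -1.56 and 1.38 points at 10% to 30%, and -2.11 and 0.223 points at 30% to 50%.

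Which starting levels separated the groups depended on the libraries that set the strata. When these were set by the mean of the 8 ovary and liver libraries, on the cytosines listed in all 12 files, both T4 libraries lay below both T1 libraries at 10% to 30% (-1.19 points), 30% to 50% (-1.14), 50% to 70% (-1.09) and 70% to 90% (-0.619). The groups then overlapped at 90% and over (-0.205) and under 10% (-0.238, the opposite sign to the value above). Only the stratum of 70% to 90% separated the groups under both ways of setting the strata. Under the first way single libraries were compared over unlike sets of cytosines, so the separation there is only a description.

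**Figure D1:**
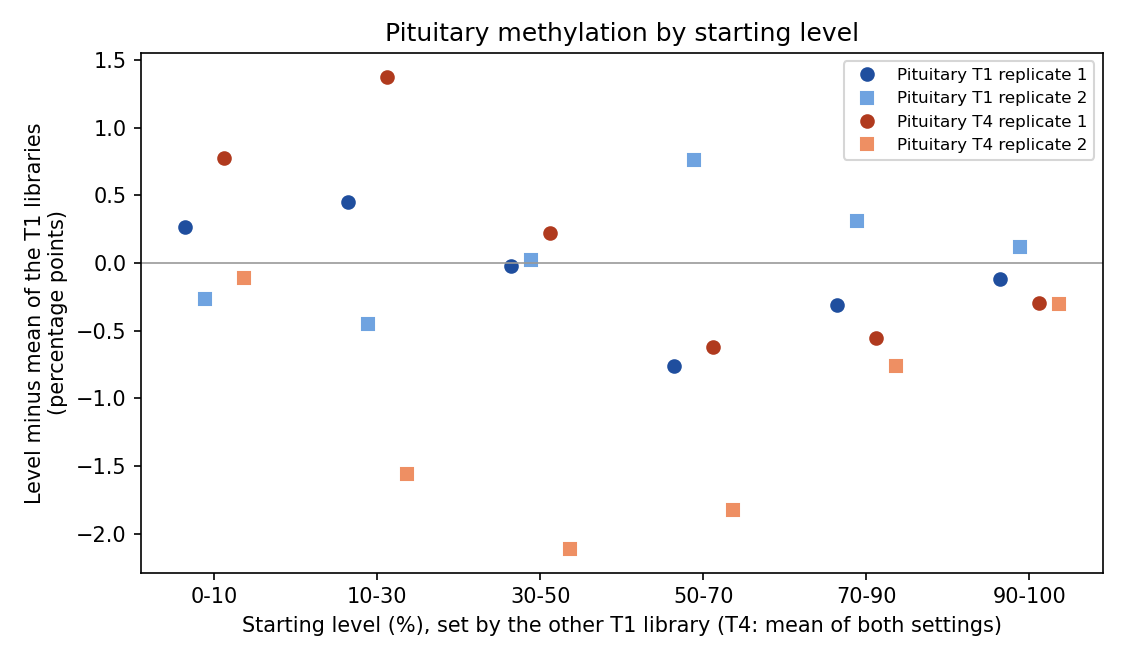
Mean methylation of each pituitary library relative to the mean of the T1 libraries (vertical axis, percentage points) by starting level (horizontal axis, %), where the stratum of a T1 library was set by the other T1 library and T4 values are means over both settings. Points are libraries. With strata set this way, both T4 libraries lie below both T1 libraries only at 70-90 and 90-100, and the T4 libraries are 2.93 points apart at 10-30. The T1 libraries are measured on different cytosines, so single libraries are not compared over like sets.

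The difference became smaller as CpGs became denser. CpG density was counted as the CpG sites, with strands merged, that any of the 12 files lists within 250 bp on each side. Methylation itself was higher where listed CpGs were dense, from 78.6% at T1 with 1 to 5 sites to 91.9% with more than 40. With 1 to 5 sites, 1187607 cytosines had levels of 78.4% and 78.8% at T1 and 78.2% and 77.8% at T4, a difference of -0.579 points. The difference was -0.527 points with 6 to 10 sites and -0.431 points with 11 to 20 sites, and in these 3 strata both T4 libraries lay below both T1 libraries (exact permutation test, two-sided, p = 0.333, the smallest possible). With 21 to 40 sites it was -0.195 points and the groups overlapped. Among the 30357 cytosines with more than 40 sites it was 0.105 points, with T1 at 91.6% and 92.1% and T4 at 92.0% and 91.9%, and without T1 replicate 1 it was -0.168 points. No direction can therefore be given for the densest CpGs.

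Density and starting level were also crossed. The starting-level strata were set by the T1 libraries in turn as before, so single libraries were again compared over unlike sets of cytosines. Among cytosines starting at 90% and over, the difference was -0.373 points with 1 to 5 sites, -0.339 with 6 to 10, -0.260 with 11 to 20 and -0.127 with 21 to 40, with the T4 libraries below both T1 libraries in each. It was 0.105 points with more than 40 sites, where the groups overlapped. Among cytosines starting from 70% to 90% it was -0.726, -0.696 and -0.602 points in the 3 sparser strata, and it was -0.320 points with 21 to 40 sites, where the groups overlapped. The order by density was thus the same within both of these starting levels. Among cytosines starting at 90% and over, the T1 level still rose from 89.7% with 1 to 5 sites to 94.1% with more than 40. The crossing therefore did not hold the level fixed, and whether the order follows density or level was not tested. Among cytosines starting under 10% the groups overlapped at every density, with a difference of 0.546 points at 1 to 5 sites. With more than 40 sites the difference was 0.0536 points, over only 83 or 84 cytosines by the library that set the stratum. Whether the strata differ from each other was not tested, since 2 libraries a group allow no p under 0.333.

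**Figure D2:**
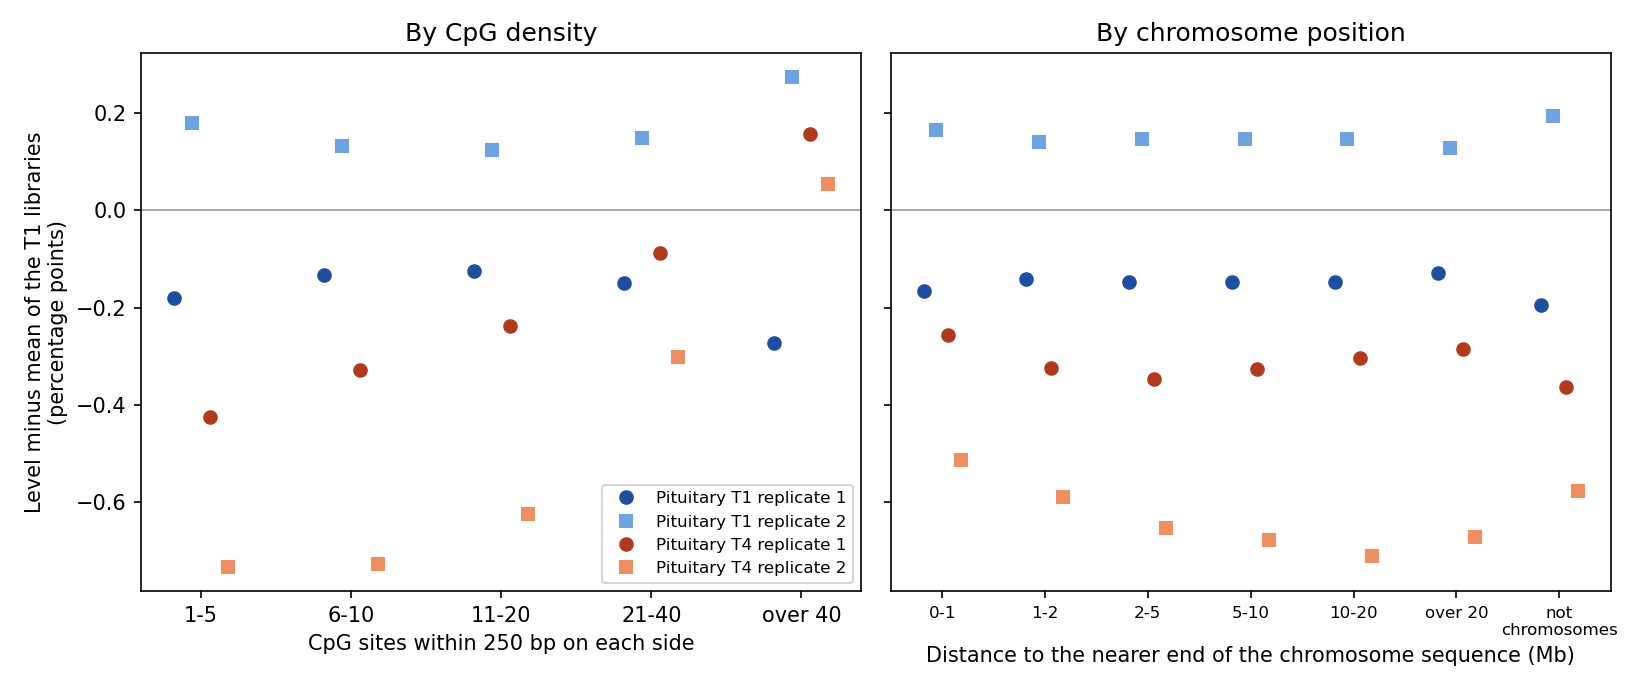
Mean methylation of each pituitary library relative to the mean of the T1 libraries (vertical axis, percentage points) by the number of CpG sites within 250 bp on each side (left) and by distance to the nearer end of the chromosome sequence (right, Mb, with sequences that are not chromosomes last). Points are libraries. The T4 libraries close up on the T1 libraries as density rises, and they lie below them at every distance.

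The difference varied little with position along the chromosome. The difference was -0.384 points within 1 Mb of the end of the listed positions, where the level was highest (82.1% at T1), and -0.456 points from 1 to 2 Mb. It lay between -0.507 and -0.478 points in the strata from 2 Mb inwards, and was -0.470 points on sequences that are not chromosomes. Both T4 libraries lay below both T1 libraries in each of these strata. They also did so on each of the 29 chromosome sequences. The difference ranged from -0.589 points on CM003286.1 (79.5% and 79.8% at T1, 79.3% and 78.9% at T4) to -0.419 points on CM003302.1 (80.7% and 81.0% at T1, 80.6% and 80.3% at T4). Chromosomes of the same 4 libraries are not independent, so their number adds no replication.

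**Figure D3:**
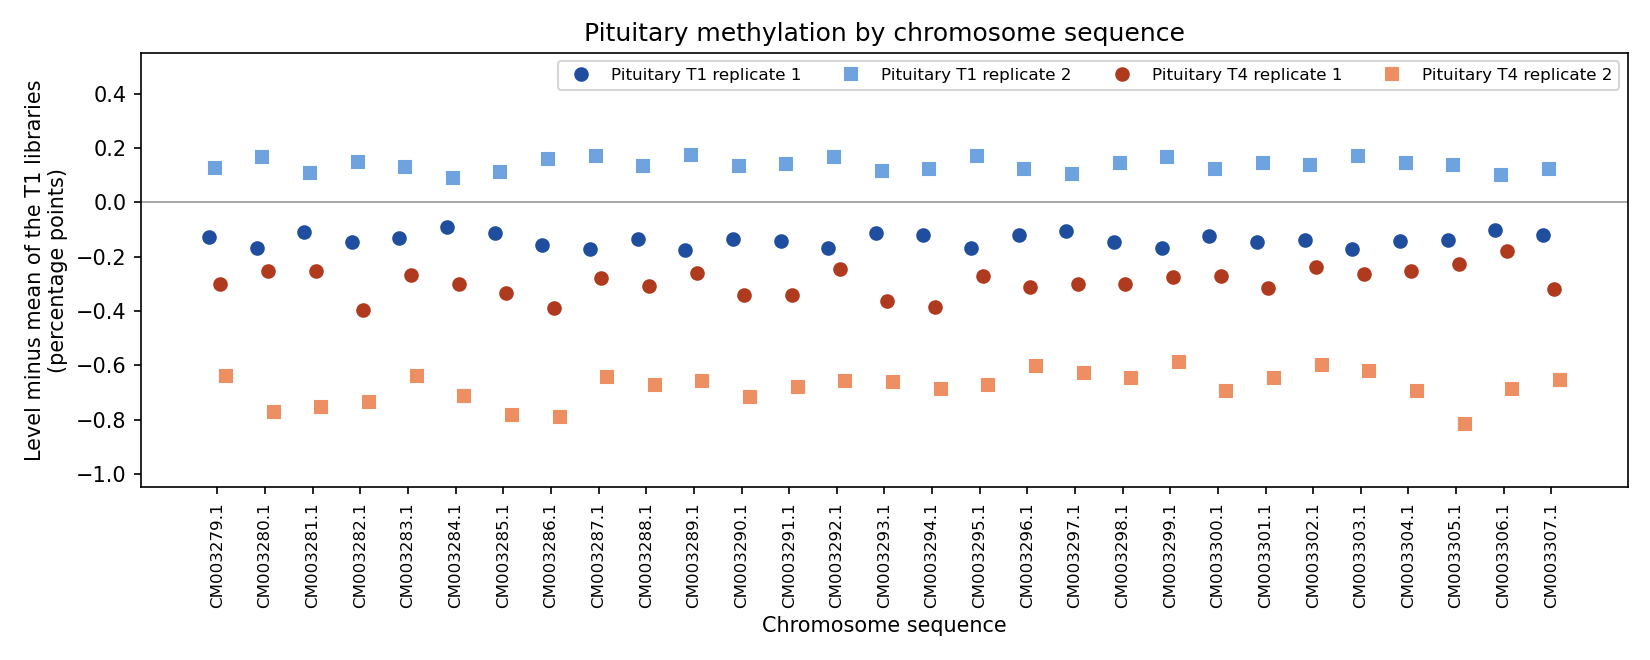
Mean methylation of each pituitary library on the 29 chromosome sequences (horizontal axis), relative to the mean of the T1 libraries on that sequence (vertical axis, percentage points). Points are libraries, and on every sequence T4 replicate 2 is lowest, T4 replicate 1 next and T1 replicate 2 highest.

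In 20908 windows of 100 kb the same small shift was seen. The median difference was -0.480 points and the SD over windows 0.932 points, against 1.17 points for the difference between replicates in each group, where a single library is set against another rather than a mean of 2 against a mean of 2. Both T4 libraries lay below both T1 libraries in 7155 windows (34.2%) and above them in 1502 (7.18%). The windows with the largest differences were of several kinds. On CM003284.1 from 19700001 to 19800000 the level rose from 41.2% and 42.3% to 53.6% and 54.5%, but outside 2 called tiles described below the difference was -1.17 points. On CM003283.1 from 53900001 to 54000000 it rose from 71.3% and 71.7% to 79.95% and 80.41%, and outside 3 called tiles the difference was 1.25 points. On CM003293.1 from 5500001 to 5600000 it was 86.9% and 86.5% at T1 and 78.1% and 80.2% at T4 over 110 cytosines, with no called tile. The first 2 windows thus held their difference in a few kilobases, while in that on CM003293.1 it was not held by any called tile. On CM003282.1 from 13900001 to 14000000 the difference was -7.04 points, but the T4 replicates, at 73.0% and 84.3%, were 11.3 points apart. On CM003289.1 from 35600001 to 35700000 it was 7.34 points, with the T1 replicates 5.27 points apart.

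Large differences at single cytosines were rare and went in both directions. The T4 libraries lay more than 60 points above both T1 libraries at 604 cytosines (0.0108%) and more than 60 points below them at 693 (0.0124%). Replicates of the same time point were more than 60 points apart at 10529 cytosines at T1 and 9007 at T4. That is a comparison of single libraries, so its counts are not those expected of a gap between pairs. The differences of neighbouring cytosines were related. For cytosines 2 to 10 bp apart the T4 minus T1 differences correlated at r = 0.290, against 0.275 for the replicate differences at each time point. At the widest spacing, up to 500 bp, the values were 0.0378, 0.0242 and 0.0223. The replicate differences are again those of single libraries, so these values are not directly comparable. Close cytosines can also lie on the same reads.

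To find where such differences gather, the reads were summed over 1 kb tiles with at least 3 shared cytosines and tested with the quasi-likelihood test of edgeR, with Benjamini-Hochberg adjustment over 736702 tiles. At an adjusted p under 0.05 the test called 507 tiles (0.0688% of those tested), of which 224 (0.0304%) were more methylated at T4 and 283 (0.0384%) less. The same counts gave 39973 of the 736702 tiles at an unadjusted p under 0.05, little above the share that this threshold passes with no difference at all. The alternative test, limma fitted to the log2 ratio of methylated over unmethylated reads, called 0 tiles, so the calls rest on the edgeR model. It gave 40175 tiles at an unadjusted p under 0.05, likewise near that share. Across all tiles the T4 libraries lay above both T1 libraries in 14.4% and below them in 19.9%. In each of the 507 called tiles the groups did not overlap.

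The called tiles moved far more than the mean. The absolute difference had a median of 36.8 points, with quartiles at 27.5 and 47.5. The call also favours large differences, so this size follows in part from the selection. Over all 736702 tested tiles, T4 minus T1 reached at least 50 points in 142. Replicates of the same time point lay that far apart in 296 tiles at T1 and 246 at T4. Those are differences of single libraries, not of group means, so the counts are not directly comparable. Among called tiles higher at T4 the median level was 23.9% and 24.4% in the T1 libraries and 78.7% and 75.5% in the T4 libraries. In the tiles lower at T4 it was 81.1% and 81.4% at T1 and 34.1% and 28.3% at T4. The replicates of a called tile lay a median of 4.58 points apart at T1 and 3.96 at T4, against 3.65 and 3.55 over all tiles. The call favours tiles whose replicates lie close, so this gap describes the called tiles and is not a test. All tiles also had a higher level, with a median T1 mean of 86.8% against 55.5% in the called tiles. The difference reached at least 50 points in 111 called tiles. It crossed from under 20% to over 60% in 29 tiles and from over 60% to under 20% in 38. In 78 tiles both means stayed between 20% and 80%. A tile level is a mean over its cytosines, so these counts do not show how often single cytosines passed from bare to fully methylated.

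The cytosines within a called tile moved together. Of 4661 cytosines in these tiles, 4372 (93.8%) had the direction of their tile, and every cytosine had it in 371 tiles (73.2%). Over all tested tiles these shares were 62.6% and 10.9%. The tile's own direction is a mean over these cytosines, so this share describes evenness and is not a test. The change was also short. In tiles adjacent to a called tile the median difference in its direction was 4.94 points on the left and 6.67 on the right, at 2 kb it was 0.630 and 0.396 points, and from 3 to 10 kb it stayed between -0.434 and 0.576 points. Of 211 tested tiles to the left, 34 were themselves called, against 0.0688% of all tested tiles. The 34 called among 219 to the right are the same pairs, counted from their other tile.

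Called tiles were most frequent at intermediate methylation. The rate was 0.580% of tiles with a mean level of 10% to 30%, 0.483% at 30% to 50%, 0.211% at 50% to 70%, 0.176% under 10% and 0.0336% at 70% to 90%. It was lowest in tiles of 90% and over, where 2 of 226665 were called. A tile with a large difference between the groups has a mean between them, so this order follows in part from the measure. By density the rate was 0.0317% at 1 to 5 sites, 0.0582% at 6 to 10, 0.117% at 11 to 20 and 0.0906% at 21 to 40, and 0 of 955 tiles with more than 40 sites were called, which allows a share of up to 0.314%. The rate also rose with the number of cytosines in a tile, from 0.0385% at 3 to 5 to 0.211% at more than 20, and with the reads per cytosine, from 0.0267% under 15 to 0.288% over 60. The part of reads in the order by density was not tested.

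Along the chromosomes the called tiles were spread widely. Every chromosome sequence held at least 4, and 30 lay on other sequences. The most were on CM003287.1, with 44 of 42485 tiles (0.104%), and the highest rate was 0.149% on CM003286.1, with 11 of 7371. The lowest rate was 0.0319% on CM003304.1, with 4 of 12525. Within 1 Mb of the end of a sequence 11 of 12354 tiles were called (0.0890%), against 232 of 358263 (0.0648%) beyond 20 Mb.

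The tiles with the largest rise at T4 went from a low level, at most 17.9% in any T1 library, to well methylated. No annotation of this assembly was used, so the tiles are given by position and no gene is assigned to them. On CM003293.1, from 43647001 to 43648000, 0 of 98 and 0 of 106 reads were methylated in the T1 libraries. The T4 libraries were at 87.2% and 93.2% (edgeR adjusted p = 2.08e-06). Independent reads would allow T1 levels of up to 3.06% and 2.83%. A read that covers several cytosines counts at each of them here, so the true limits are higher. All 6 cytosines of this tile, from 43647012 to 43647190, read 0 at T1 and 71.4% or more at T4. On CM003295.1, from 48236001 to 48237000, the level was 6.67% and 6.19% at T1 and 93.9% and 90.9% at T4 (edgeR adjusted p = 1.06e-06). The 2 tiles differed by 90.2 and 86.0 points between the time points, far beyond the gap between replicates.

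A second tile of CM003295.1, from 7078001 to 7079000, had 19 of 173 and 23 of 209 reads methylated at T1 and was at 91.1% and 88.0% at T4. On CM003290.1, from 76503001 to 76504000, 20 cytosines gave 3.88% and 6.60% at T1 and 77.2% and 78.9% at T4, with 361 to 602 reads a library, and had the smallest adjusted p of the rising tiles (edgeR, 1.26e-07). At 19 of these 20 cytosines the groups did not overlap. The tile of CM003286.1 from 3543001 to 3544000 went from 13.8% and 17.9% to 88.6% and 87.0%, and that of the unplaced sequence AGKD04010164.1 from 13001 to 14000 went from 4 of 80 reads and 16.8% to 87.3% and 91.1%.

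The tiles with the largest fall showed the reverse picture, with more spread at T1. On CM003284.1, from 889001 to 890000, the level was 73.0% and 88.9% at T1, and at T4 it was 0 of 81 reads and 1.18% (edgeR adjusted p = 3.3e-05). Independent reads would allow up to 3.70% for the 0, and the true limit is higher for the reason given above. On AGKD04020216.1, from 8001 to 9000, it was 86.9% and 88.8% at T1 and 8.97% and 8.74% at T4, with the replicates less than 2 points apart at either time. On CM003280.1, from 17215001 to 17216000, the T1 libraries were at 94.1% and 62.9%, and the T4 libraries at 0 of 74 reads and 2.67%. Independent reads would allow up to 4.05% for the 0, and here too the true limit is higher. The T1 replicates were far apart, yet each of the 7 cytosines separated the groups.

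On CM003295.1, from 49153001 to 49154000, 24 cytosines gave 82.1% and 72.2% at T1 and 2.05% and 0.611% at T4 (edgeR adjusted p = 1.26e-07), and each of them separated the groups. This tile lay in a 100 kb window that was 7.38 points lower at T4, and outside the tile the window differed by -1.17 points. On CM003289.1, from 75539001 to 75540000, the level was 87.0% and 98.1% at T1 and 32.8% and 2.00% at T4, so the T4 replicates were far apart and only 3 cytosines were measured. On CM003294.1, from 18240001 to 18241000, it was 70.5% and 91.1% at T1 and 1.75% and 12.7% at T4.

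**Figure D4:**
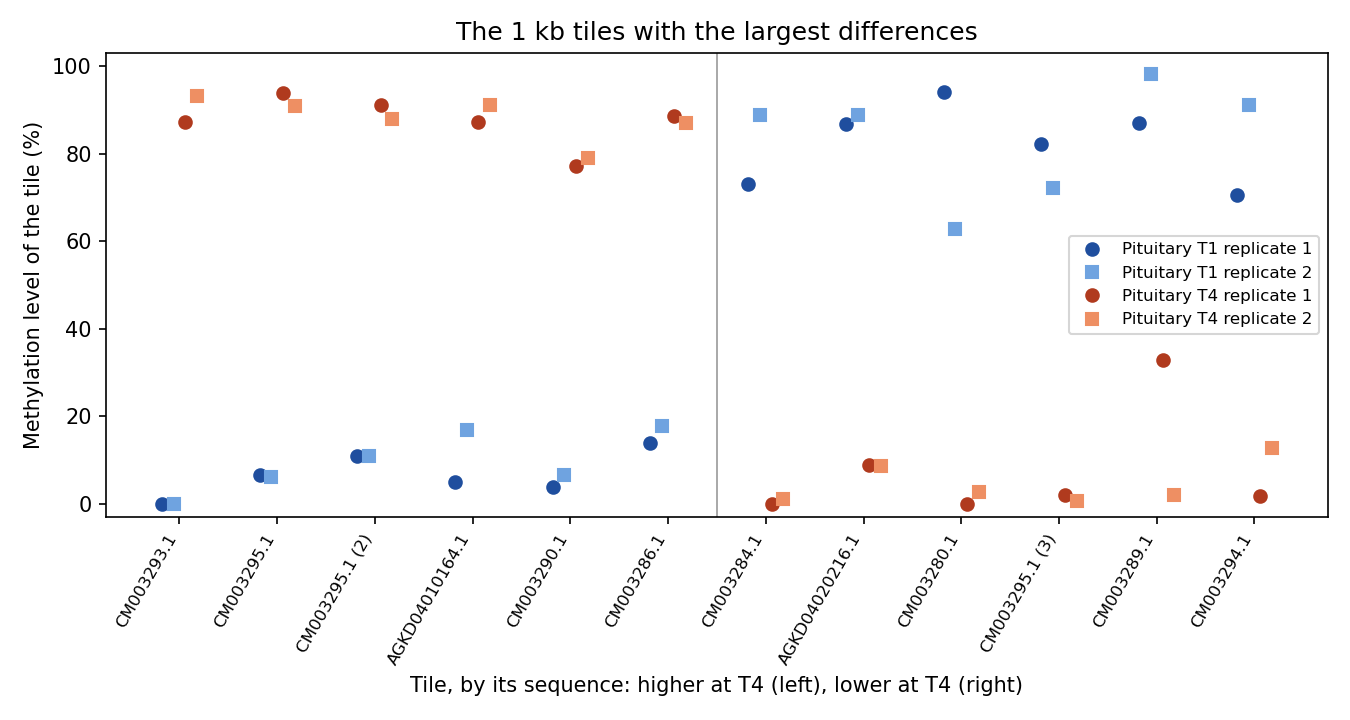
Methylation level (vertical axis, %) of the 6 called tiles with the largest rise (left of the line) and the 6 with the largest fall (right) in the 4 pituitary libraries. Points are libraries, and a number in brackets separates tiles of the same sequence. In all 12 tiles the T1 and T4 libraries do not overlap, as the rule for choosing them requires.

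Among the 490 called tiles with coverage of at most 3 times the median, those within 5 kb of each other formed 34 runs that held 70 tiles, none with both directions, and no run had more than 3 tiles. The longest, on CM003283.1 from 53902001 to 53909000, rose in 3 tiles. Its levels were 29.8% and 5.69% at T1 and 69.9% and 79.2% at T4 in the first tile, 12.5% and 15.5% against 68.9% and 73.8% in the next, and 16.2% and 26.4% against 78.8% and 75.7% in the last. The first of these lost its call without T4 replicate 2 (edgeR adjusted p = 0.0821). The run on CM003292.1 from 56757001 to 56762000 began nearly unmethylated, at 1.45% to 3.36% in every tile and T1 library, and rose to between 11.8% and 42.0% at T4. A region can therefore be called at T4 levels that are still low. The run on CM003287.1 from 82280001 to 82286000 held only 2 tiles, at its ends. The levels fell from 16.9% and 34.1% to 0.913% and 3.54% in the first tile. In the other they fell from 59.6% and 70.8% to 16.2% and 24.6%. At 6 of the 12 cytosines of the first tile the groups did not overlap. With tiles of 5 kb neither place was called (edgeR adjusted p = 0.528 and 0.522). With all 12 libraries in the fit the first tile was not called (edgeR adjusted p = 0.284). The other tile lost its call without T1 replicate 2 and without T4 replicate 1.

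Of the called tiles, 17 had more than 3 times the median coverage of 19.6 reads per cytosine and these were kept out of the named tiles. The 2 called tiles of the CM003284.1 window described above were among these. From 19718001 to 19719000 the T1 libraries had 617 and 834 reads at 2.92% and 8.75%, and the T4 libraries had 5376 and 2808 reads at 76.2% and 75.5%. In the adjacent tile, from 19719001 to 19720000, reads rose from 787 and 1109 to 4084 and 2400 and the level from 54.8% and 56.1% to 80.4% and 81.6%. Read number and level thus moved together there, and the part of reads from other copies of such a sequence was not tested.

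The called tiles were finally read in the ovary and liver libraries, which took no part in the call. Their T4 libraries lay near the pituitary T4 level and their T1 libraries near the pituitary T1 level, with 2 exceptions. Each library was placed on a scale on which the pituitary T1 mean of the tile is 0% and its T4 mean is 100%. The liver T1 libraries had a median place of 5.82% and 5.43%, and ovary T1 replicate 1 of 7.51%. The ovary T4 libraries stood at 95.4% and 97.4% and liver T4 replicate 2 at 100.2%. Liver T4 replicate 1 stood between, at 69.9% with quartiles at 21.7% and 102.1%, and ovary T1 replicate 2 at 21.5% with quartiles at -1.16% and 77.1%. These 2 libraries thus followed the pituitary of their time point in some tiles and the other time point in others.

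The sign was the same in nearly all tiles. Among 443 called tiles with a level in all 4 ovary libraries, 433 (97.7%) differed in the pituitary direction, with both T4 libraries past both T1 libraries in 355 (80.1%). Among 441 such tiles in the liver it was 431 (97.7%), and 316 (71.7%) with both libraries past. Over all tested tiles with such levels the direction was shared in 52.2% for the ovary and 52.3% for the liver, with both libraries past in 19.98% and 18.3%. The median difference in that direction was 25.03 points in the ovary and 25.3 in the liver, where the pituitary differed by 34.6 and 34.997 points. The tissues were taken at the same samplings, and some library titles share a code across tissues, so the libraries may come from the same fish and are no independent replicates. At T1 the titles give the code F3 to replicate 1 and F4 to replicate 2 of both the pituitary and the liver. The codes of the ovary T1 libraries were not used, since fields of their records disagree. At T4 they give F4 to replicate 2 of all 3 tissues, F3 to replicate 1 of liver and ovary, and F2 to replicate 1 of the pituitary alone. The tile of CM003293.1 described first shows the pattern, with 2.20% and 0 methylated reads in the liver and 0 in both ovary libraries at T1, and with 55.5% and 89.2% in the liver and 94.5% and 86.8% in the ovary at T4. The fall on CM003295.1 from 49153001 does not show it, since the T1 libraries of the liver were at 13.0% and 12.6% and those of the ovary at 24.8% and 21.6%, nearer the pituitary T4 level than its T1 level, although the T4 libraries were lower still, at 6.28% and 0.680% in the liver and 0.935% and 0 in the ovary. Time point and fish cannot be told apart here either.

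**Figure D5:**
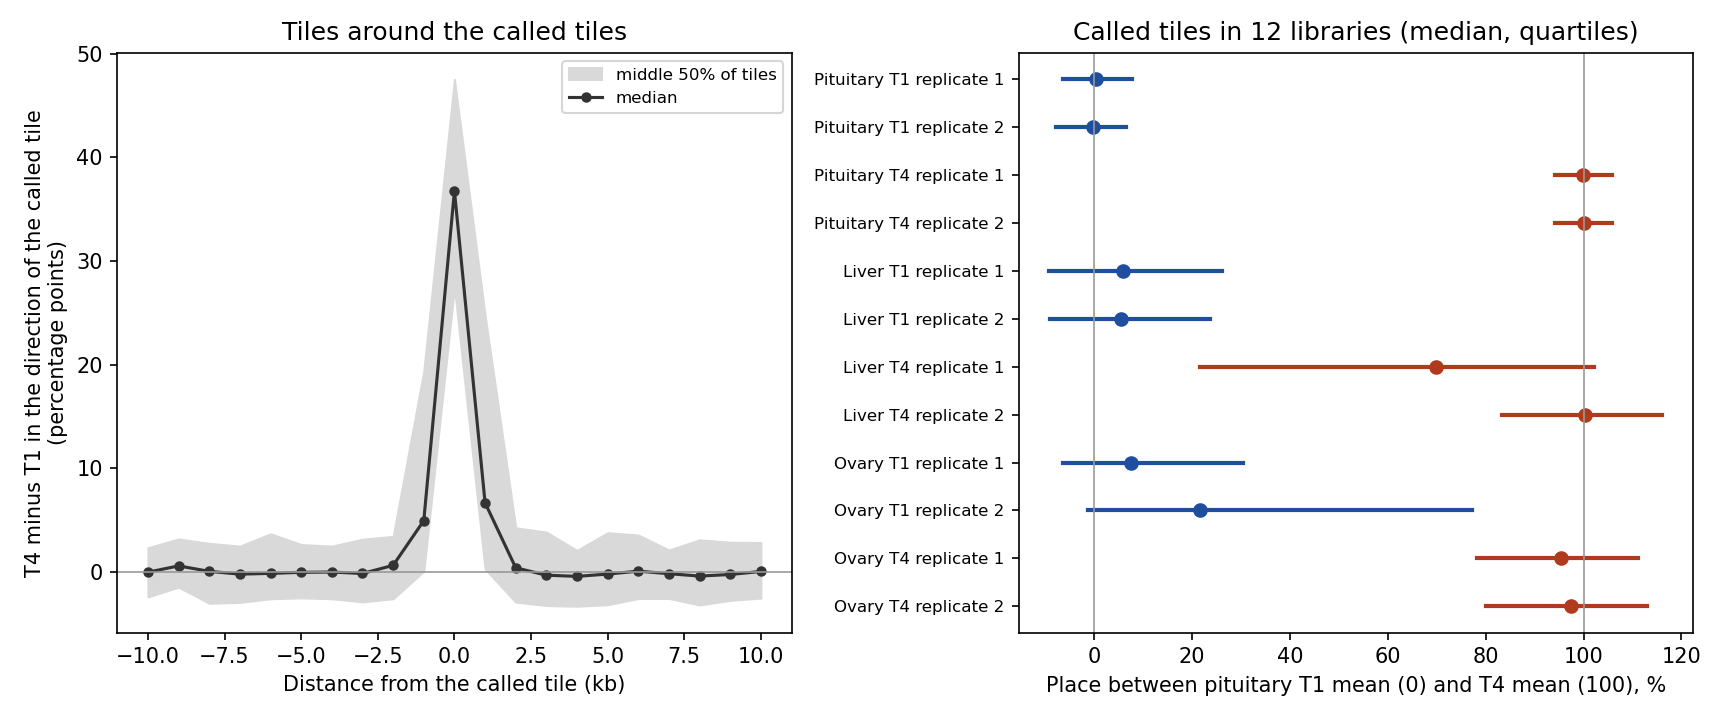
Left, T4 minus T1 in the direction of the called tile (vertical axis, percentage points) for tiles at each distance from it (horizontal axis, kb), as the median and the middle 50% of tiles, with the median falling from 36.8 to 4.94 and 6.67 points at the adjacent tiles. Right, place of the 507 called tiles in the 12 libraries on a scale from the pituitary T1 mean (0%) to the T4 mean (100%), as median (points) and quartiles (lines), with liver T4 replicate 1 at 69.9% between the others.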

How the data were processed

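Whole-genome bisulfite libraries of 12 samples were available, and 4 pituitary libraries were compared, grouped by their descriptions. The authors trimmed reads with Trim Galore 0.5, aligned them to ICSASG_v2 with BSseeker2 2.1.8 (Bowtie2), removed duplicates with Picard and called methylation with BSseeker2. The deposited counts are raw reads and raw methylated reads per CpG cytosine, listed from 10 reads, with strands separate. Coverage is thus cut at 10 reads, and intervals and limits cover counting error only. The reads of a tile are summed over its cytosines, so a read that covers several of them counts at each. Limits on the level of a tile treat these counts as independent and are therefore too low. Library means were compared by exact permutation tests. Tiles of 1 kb were tested with edgeR 4.0.16 (library effect, common dispersion from 20000 tiles), with limma 3.58.1 (pseudocount 1) as the alternative, in R 4.3.3, Python 3.11.15 and numpy 2.4.6. DSS, used by the authors for regions, was not run. The tests were run on simulated data first. Named tiles were, in each direction, the 6 largest differences among called tiles whose groups did not overlap and whose coverage was at most 3 times the median, plus the 3 longest runs of such tiles within 5 kb. The CM003284.1 tiles and the windows were named after their values were seen. Alternatives are given in the closing section. The strata, tiles and rules were chosen with earlier results of these data known. The permutation p-values compare 2 libraries with 2. The edgeR p-values rest on the spread between the 2 libraries of a group, moderated over tiles with a prior of 15.5 degrees of freedom. Most of that spread is thus borrowed from other tiles.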

Additional observations from a re-analysis of the deposited data

Results flagged for a closer look

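Over the 3563979 cytosines listed in all 12 files, the change in mean level went in opposite directions in the pituitary and the ovary. In the pituitary the levels were 79.7% and 79.9% at T1 and 79.5% and 79.1% at T4, so that T4 minus T1 was -0.538 points. Ovary levels were 78.1% and 77.7% at T1 and 78.1% and 78.9% at T4, so that T4 minus T1 was 0.632 points. The time points did not overlap in either tissue, and pituitary minus ovary came to -1.17 points. In the ovary they nearly met, at 78.07% in T1 replicate 1 and 78.11% in T4 replicate 1. The ovary T4 libraries, at 78.11% and 78.90%, lay further apart than the ovary means of 77.88% at T1 and 78.51% at T4. The rise in the ovary thus rested mainly on T4 replicate 2. The difference between tissues was not tested.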

How the results depend on the processing

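The lower mean level kept its sign in 9 of 10 alternatives, at -0.668 to -0.304 points without a replicate and at -0.483 points without the cytosines of the called tiles (an alternative chosen after seeing the data), and reversed with every cytosine of each file (0.0422). The 35 values by position kept their sign. Strata set by the mean of both T1 libraries, which are also compared, gave 2.77, 2.85, 1.83, 2.09, 1.51 and -3.25 points from the lowest to the highest stratum. Sampling error in that mean moves its strata apart by construction, so these values do not bear on T4. Strata set by ovary and liver gave -0.238 under 10% and separated the groups from 10% to 90% (-1.19 to -0.619), but not at 90% and over (-0.205). Without a T4 replicate the sign turned in the strata under 10% (-0.110 to 0.774), at 10% to 30% (-1.56 to 1.38) and at 30% to 50% (-2.11 to 0.223). The window of 100 bp gave 0.164 points at 21 to 40 sites. Without a replicate the densest stratum ranged from -0.168 to 0.379. The 507 called tiles became 0 with limma at either pseudocount (1 or 0.5, with 40175 and 38937 at an unadjusted p under 0.05), 115 at 20 reads or more (184546 tiles tested, 104 shared with the 507), 210 with all 12 libraries in the fit (495114 tested, 178 shared), and 691 to 1063 without a replicate, where a lone library is assumed to vary like the other group. Of the 507, 425 and 362 remained without T1 replicate 1 or 2, and 313 and 309 without T4 replicate 1 or 2. Why the count rises with fewer libraries was not tested. Fitting the replicate number as a block (replicate block) gave 2553 tiles, all 507 included. Replicate differences at T1 and T4 correlated at r = 0.00614 across tiles, and at 0.00501 among tiles with a mean level of 20% to 80%. Whether samples with the same replicate number share anything more was not tested. Other tile lengths, 6 cytosines or more and at most 50 reads gave 360 to 514. The 20 named tiles kept their sign in all 215 refits, which follows largely from choosing tiles whose groups did not overlap. They kept their call in 165 refits, with no call in the 40 limma fits. CpG density from a genome sequence was not run, since no genome of this build was used.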
